A study of Mus musculus with 6 samples.

Results

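The proteasome is the barrel-shaped protease that destroys ubiquitin-tagged proteins in the cytosol and nucleus. Its genes were read here in the heart of wild type mice and of mice labelled irisin knockout. Irisin is a hormone cut from the membrane protein encoded by Fndc5. The genes were chosen by symbol: those that start with Psma, Psmb, Psmc, Psmd, Psme, Psmf or Psmg followed by a digit, without Psmb8, Psmb9, Psmb10 and pseudogenes. The rule found 45 genes among the 23185 genes with a named row. Of these, 43 encode a subunit, activator, inhibitor or assembly factor of the proteasome. The other 2, Psmc3ip and Psme3ip1, are named as interacting proteins of a Psm product and are not subunits. Psmb3, Psmb5 and Psme2b lacked a named row and were not analysed here, so the beta ring is described from 6 genes.

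The study compared 3 arrays of wild type FVB mice, an inbred albino strain, with 3 arrays of FVB mice with an irisin knockout. The knockout came from zygotes injected with Cas9 and 5 guide RNAs, the wild type animals were littermates, and both groups ate standard chow with 10% fat for 24 weeks. The labels give neither the age at sampling nor the sex, and not which part of Fndc5 was deleted. The labels call the material cardiomyocytes in some fields and myocardium in another, and although every sample is tied to an animal, nothing states that no animal gave RNA to more than 1 array. Should animals repeat, the p-values would reflect technical spread.

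In the proteasome, a core particle of stacked alpha and beta rings holds the protease sites on its inner face, and a regulatory particle on its end recognises ubiquitin, removes it, unfolds the substrate and feeds it in. Other caps, such as the activators encoded by the Psme genes, open the core without ubiquitin. Heart muscle depends on this machine to replace worn contractile proteins, and dedicated chaperones build both particles.

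Values are log2 RMA summaries, 1 per gene and array, and differences are knockout minus wild type. Each was tested with limma over all 23185 genes, with Benjamini-Hochberg adjustment and a threshold of 0.05. Array medians lay between 2.13 and 2.28. Fndc5 read 8.42, 8.40 and 7.83 in replicates 1, 2 and 3 of the wild type and 7.68, 5.49 and 5.45 in knockout replicates 1, 2 and 3. All knockout values lay below the wild type values, though replicate 1 only narrowly (difference -2.01, SE 0.54, limma adjusted p = 0.0359). The probes may lie outside the deleted part, but they are the same on every array. Why knockout replicate 1 read above knockout replicates 2 and 3 was not tested. The call was lost without any 1 array other than knockout replicate 1 (0.0617 to 0.133) and with the robust variance model (0.0635), and the difference was -2.75 without knockout replicate 1. The 7 cardiomyocyte markers, Myh6 and Tnnt2 among them, had a mean value of 11.04 to 11.49 in wild type and 11.38 to 11.47 in knockout arrays. Of the 7, 1 was called higher, Pln (difference 0.76, limma adjusted p = 0.0274), and 0 lower. Differences were positive for 3 and negative for 4. Means over 5 smooth muscle markers were 7.51, 6.39 and 8.62 in wild type replicates 1, 2 and 3 against 4.57 to 5.11 in the knockout, and 5 of 5 were called lower. Among fibroblast markers 3 of 6 were called lower (list means 6.81 to 7.60 in wild type, 6.25 to 6.50 in the knockout), and among endothelial markers 2 of 6 (7.54 to 7.68 and 6.95 to 7.21). Macrophage markers (4 tested), lymphocyte markers (3) and erythroid markers (2) had 0 called in limma. Among them Hbb-bs, Cd79a and Nkg7 were dim, at 0.72 to 2.72, 1.41 to 2.17 and 1.82 to 2.27 over the 6 arrays. Differences of such dim genes are poorly resolved. At an unadjusted limma p under 0.05, 2 of the 4 macrophage, 1 of the 3 lymphocyte and 1 of the 2 erythroid markers differed. So did 6792 of all 23185 genes. Fewer cells of a type and less RNA per cell cannot be told apart in such samples, and the part of these markers in the results below was not tested.

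Proteasome genes moved both ways, with more higher than lower in the knockout. Of the 45 genes, 12 rose, 2 fell and 31 did not pass. The risers included the inhibitor Psmf1, the chaperones Psmd5 and Psmg2, the activator Psme3 and the regulatory subunits Psmd1 and Psmd12. Both genes that fell, Psma3 and Psmb1, encode subunits of the core particle. Sem1, which encodes a small subunit of the regulatory particle but lies outside the symbol rule, was also called lower (-0.49, limma adjusted p = 0.0226). Differences of at least 2-fold were found for 3 of the 45 genes, Psmf1, Psmd5 and Psmg2, all higher. No such share is given here for all genes, whose log2 differences ran from -5.81 to 3.97. Among all genes tested, 10.4% were called higher and 6.18% lower, 16.6% in all, against 31.1% of the proteasome genes. The median difference was 0.21 over the proteasome genes and -0.05 over all genes.

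**Figure D1:**
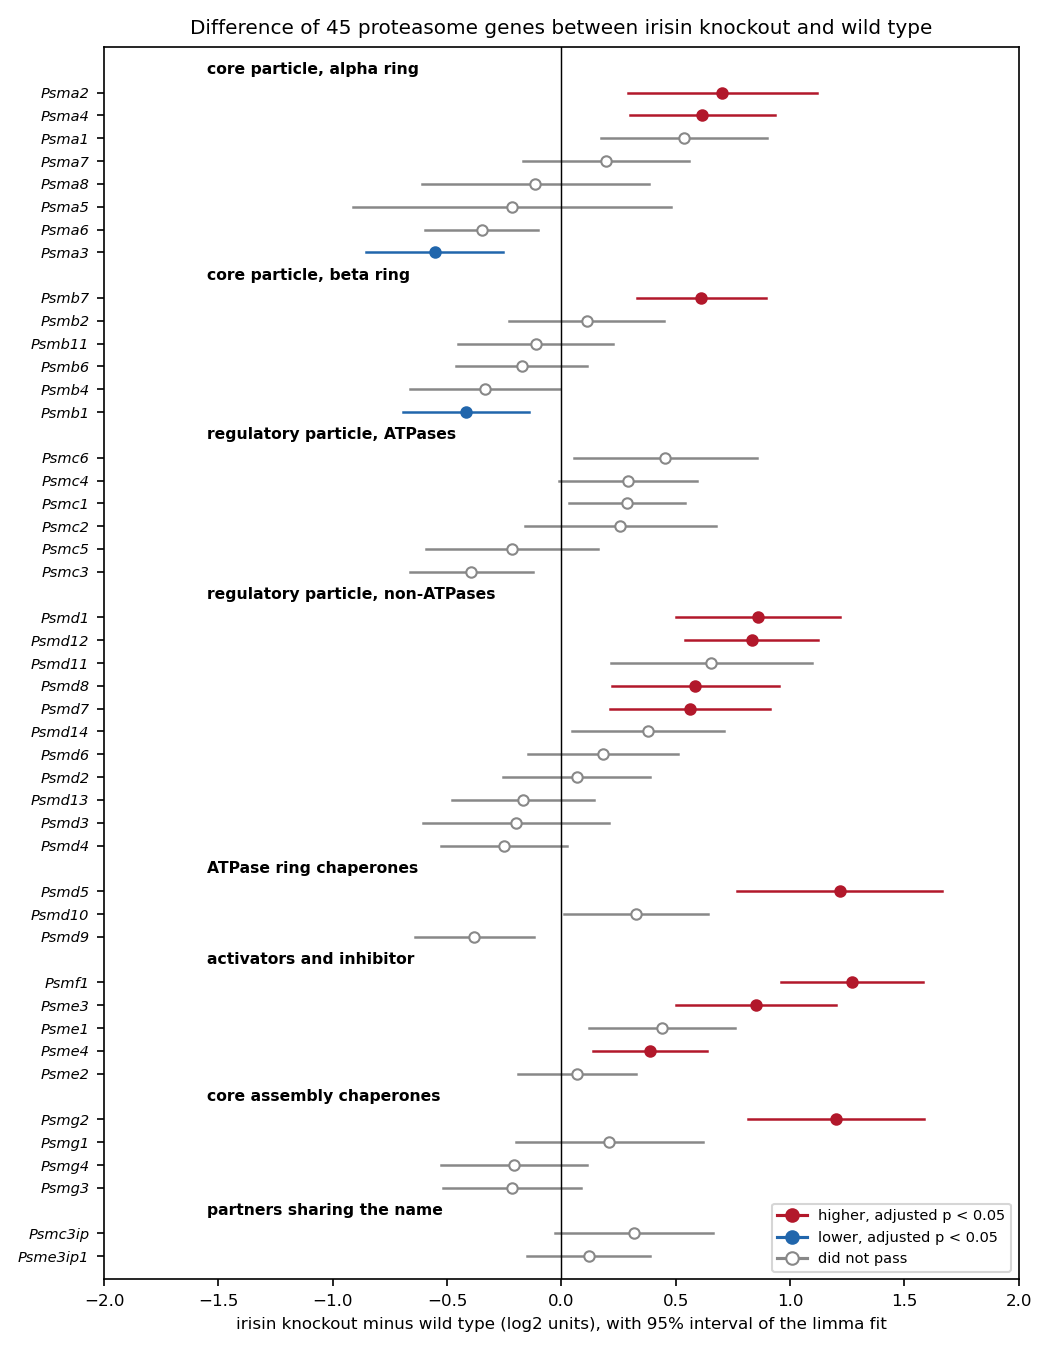
Difference between irisin knockout and wild type for each of the 45 proteasome genes, in log2 units on the horizontal axis, grouped by role. Points are differences of means of 3 arrays, lines are 95% intervals of the limma fit, and filled points passed an adjusted p of 0.05. The 12 genes that rose lie in all groups except the ATPases and the name-sharing partners, and the 2 that fell lie in the core particle.

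How bright a gene is on the array bears on that comparison. All genes were ranked by mean value into 10 equal parts, and 34 of the 45 proteasome genes lay in the 2 brightest parts. There 13 of 34, or 38.2%, were called, beside 41.0% of all 4637 genes in the same parts. Calls in the upward direction made up 32.4% of the proteasome genes and 30.0% of all genes there, and downward calls 5.88% and 11.0%. The median difference was 0.29 for the 34 genes and 0.20 for all genes of these parts. The share called among bright proteasome genes was therefore near that of bright genes at large. Which of them was higher turned with the scaling. After quantile normalization 14.7% of the bright proteasome genes and 19.5% of all bright genes were called higher, and after centring 44.1% and 36.0%.

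**Figure D2:**
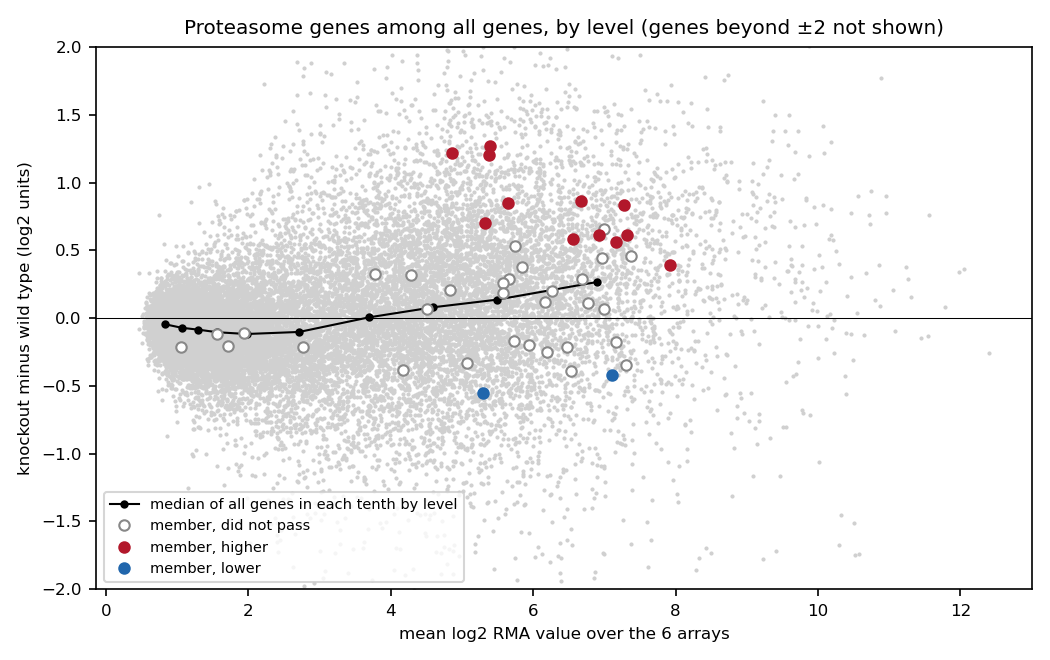
Difference between irisin knockout and wild type (vertical axis, log2 units) against the mean log2 RMA value over the 6 arrays. Grey dots are all genes, the black line joins the medians of the 10 parts by level, and circles are the 45 proteasome genes. The line runs from -0.05 in the dimmest part through -0.12 in the fifth to 0.27 in the brightest, where 21 of the proteasome genes lie, and the 12 filled red circles lie above the line.

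The count also depended on the scaling of the arrays and on single arrays. With the deposited values 85.7% of the called proteasome genes were higher, beside 62.8% of all called genes. After quantile normalization 6 were higher and 5 lower, or 54.5%, beside 55.2% of all called genes, and the median was 0.06. The 6 were Psmf1, Psmd5, Psmg2, Psmd1, Psme3 and Psmd12, and the 5 were Psma3, Psmb1, Psma6, Psmc3 and Psmd9. With each array centred on its median 16 were higher and 1 lower, or 94.1%, beside 75.4%. Genes called higher numbered 6 without knockout replicate 2 and 7 without replicate 3, and 8 with knockout replicate 1 or wild type replicate 3 left out. Genes called lower numbered 0 without knockout replicate 1 or 3 and 1 without any other single array. The 6 genes named above as higher after quantile normalization kept their call in each of the 6 fits that left out 1 array.

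**Figure D3:**
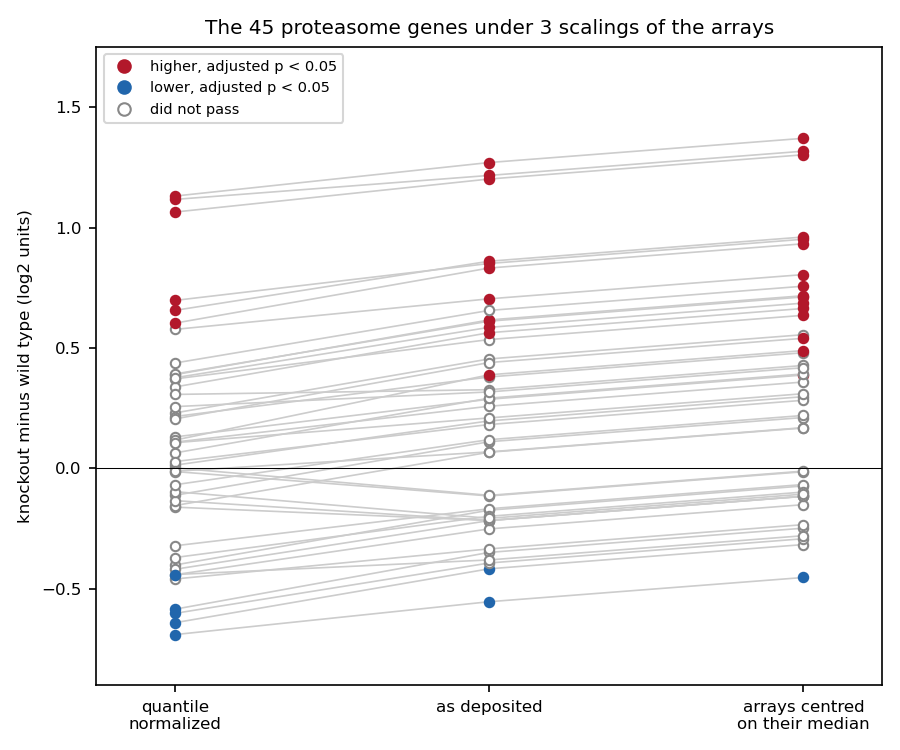
Difference between irisin knockout and wild type (log2 units) for the 45 proteasome genes under 3 scalings of the arrays, with a grey line joining each gene. Red points were called higher and blue points lower at an adjusted p of 0.05, and open points did not pass. Calls go from 6 higher and 5 lower after quantile normalization, through 12 and 2 as deposited, to 16 and 1 after centring.

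Wild type arrays were less alike than knockout arrays for these genes. The mean over all 45 was 5.58, 5.56 and 5.35 in wild type replicates 1, 2 and 3 and 5.72, 5.74 and 5.71 in knockout replicates 1, 2 and 3. Wild type replicate 3 was thus the low array, and the groups did not overlap. It gave the lowest of the 3 wild type values for 31 of the 45 genes and, as above, the highest smooth muscle mean, 8.62. Without it the median difference over the proteasome genes fell from 0.21 to 0.07. The median SD of a gene over 3 arrays was 0.20 in wild type and 0.13 in the knockout, beside 0.18 and 0.14 over all genes. Within an array, the SD over all genes was 2.07, 2.05 and 2.01 in wild type replicates 1, 2 and 3. It was 2.14, 2.16 and 2.14 in knockout replicates 1, 2 and 3, so wild type replicate 3 had the lowest. The part of this spread within arrays in the proteasome values was not tested.

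Promoter stretches of the 5 genes with the steadiest rises that have an entry, and of Psma3, which fell, are shown so that the letters before genes of 1 complex that were called can be set side by side. They come from RefSeq, build GRCm38.p6, and hold the 250 bases before the annotated start, 5′ to 3′ on the gene's strand. Capitals mark matches on either strand to 4 short motifs. These are TGACNNNGC and TGAGNNNGC, core forms of the antioxidant response element that binds the factor encoded by Nfe2l1, a known activator of proteasome genes; CCAAT, the box of the factor NF-Y; and CCGGAA, the core bound by ETS factors. The stretch of Psmf1 is chr2:151741311-151741560 (minus strand), that of Psmd5 chr2:34870963-34871212 (minus), and that of Psmd12 chr11:107479278-107479527 (plus). That of Psmd1 is chr1:86064369-86064618 (plus), that of Psme3 chr11:101315963-101316212 (plus) and that of Psma3 chr12:70974373-70974622 (plus). For Psmf1 and Psma3 the start used lies inside the outermost bounds of the gene, so other starts exist.
Psmf1: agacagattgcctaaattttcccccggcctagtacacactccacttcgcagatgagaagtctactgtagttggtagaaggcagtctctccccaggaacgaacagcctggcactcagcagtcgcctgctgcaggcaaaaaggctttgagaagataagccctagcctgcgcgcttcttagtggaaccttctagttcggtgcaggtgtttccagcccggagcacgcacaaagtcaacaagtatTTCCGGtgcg
Psmd5: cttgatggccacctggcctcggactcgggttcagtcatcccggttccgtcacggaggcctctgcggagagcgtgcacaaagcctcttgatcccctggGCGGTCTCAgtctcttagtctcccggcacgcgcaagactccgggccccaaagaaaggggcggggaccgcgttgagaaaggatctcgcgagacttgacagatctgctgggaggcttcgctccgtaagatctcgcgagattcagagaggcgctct
Psmd12: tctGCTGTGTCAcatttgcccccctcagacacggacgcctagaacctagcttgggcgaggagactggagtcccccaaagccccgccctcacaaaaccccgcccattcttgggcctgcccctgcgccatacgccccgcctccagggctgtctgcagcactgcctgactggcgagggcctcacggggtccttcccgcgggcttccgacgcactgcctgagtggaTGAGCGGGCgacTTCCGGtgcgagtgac
Psmd1: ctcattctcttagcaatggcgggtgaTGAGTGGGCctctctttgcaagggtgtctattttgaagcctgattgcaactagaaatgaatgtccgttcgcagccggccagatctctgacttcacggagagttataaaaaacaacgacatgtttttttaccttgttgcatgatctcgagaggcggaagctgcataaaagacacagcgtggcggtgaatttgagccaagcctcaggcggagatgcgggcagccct
Psme3: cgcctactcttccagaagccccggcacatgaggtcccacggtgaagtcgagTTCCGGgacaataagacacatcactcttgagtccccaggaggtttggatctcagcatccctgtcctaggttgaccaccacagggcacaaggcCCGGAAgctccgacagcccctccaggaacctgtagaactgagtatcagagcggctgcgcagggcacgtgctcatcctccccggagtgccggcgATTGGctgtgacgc
Psma3: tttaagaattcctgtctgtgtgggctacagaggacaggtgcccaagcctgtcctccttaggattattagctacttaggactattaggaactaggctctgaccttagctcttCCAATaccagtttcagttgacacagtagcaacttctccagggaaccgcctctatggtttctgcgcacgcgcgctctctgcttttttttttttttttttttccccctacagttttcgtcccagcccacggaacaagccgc

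Psmd12 held 3 matches, an ETS core 16 bases before the start, a TGAGNNNGC match that begins 28 bases before it and a TGACNNNGC match that begins 247 bases before it. Psmf1 held an ETS core 10 bases before the start, and Psme3 held 2 ETS cores and a CCAAT box. Psmd1 and Psmd5 each held a single TGAGNNNGC match, and Psma3, which fell, only a CCAAT box. In the table's windows of 300 bases, which run on to 50 bases after the start, 37 of the 45 genes had an entry. A gene was counted if any of its windows held a match, and the shares for all genes cover every level. An ETS core lay in 22 of the 37, or 59.5%, beside 20.8% of 17452 genes tested that have an entry. Among the protein-coding ones it lay in 21.8%. The ETS motif was added after promoters had been read, so its share is not an independent result. By call, 5 of 9 genes that rose, 0 of 1 that fell and 17 of 27 that did not pass held an ETS core. TGAGNNNGC lay in 12 of 37 (32.4%, against 21.0% of all), TGACNNNGC in 5 (13.5% against 15%) and CCAAT in 14 (37.8% against 41.9%). Of the 9 genes that rose and have an entry, 4 held TGAGNNNGC, 2 TGACNNNGC and 2 CCAAT. Median GC content was 59.0% in windows of the proteasome genes and 56.7% in all. A match is a run of letters and no evidence of binding.

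Alpha ring genes, whose products form the outer gate of the core particle, split in direction. Of 8, Psma2 and Psma4 rose, Psma3 fell and 5 did not pass. The median of 0.04 turned to -0.00012 after quantile normalization. The median includes the dim genes Psma5 and Psma8. Without the dimmest 50% of genes, 6 alpha ring genes remained, 3 higher and 1 lower, with a median of 0.37. Psma2 read 5.24, 5.04 and 4.62 in replicates 1, 2 and 3 of the wild type and 5.57, 5.89 and 5.54 in the knockout. Every knockout value was above every wild type value, and the rise was 1.63-fold (SE 0.18 on the log2 scale, limma adjusted p = 0.0309). Psma4 read 6.79, 6.68 and 6.40 in wild type and 7.11, 7.29 and 7.32 in the knockout. Its groups were likewise apart, 1.53-fold (SE 0.14, limma adjusted p = 0.0183). Psma3 went the other way, from 5.54, 5.55 and 5.63 to 5.06, 5.19 and 4.81. The 3 knockout arrays lay below the 3 close wild type values, a log2 difference of -0.55 (SE 0.13) with a limma adjusted p of 0.0225.

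These alpha ring calls were not firm. Quantile normalization ended those of Psma2 (0.0533) and Psma4 (0.0801). Leaving out any 1 array except wild type replicate 1 ended the call of Psma2 (limma adjusted p 0.0505 to 0.120). The call of Psma4 was lost without knockout replicate 2 (0.0761) or 3 (0.0720), and that of Psma3 when wild type replicate 3 (0.0630), knockout replicate 1 (0.0670) or knockout replicate 3 (0.0804) was left out. Psma1 missed the threshold at 5.55, 5.72 and 5.15 in wild type against 5.96, 6.07 and 6.01 in the knockout, where the groups do not overlap (difference 0.53, interval 0.17 to 0.90, limma adjusted p = 0.0530). It passed without wild type replicate 2 (0.0269), after centring (0.0302) and without the dimmest 50% of genes (0.0373). Psma6 had a difference of -0.35 (adjusted p = 0.0619) and passed as lower after quantile normalization (-0.59, 0.0124). Psma7 had a difference of 0.20 (interval -0.17 to 0.56). Psma5 read only 0.60 to 1.93 over the 6 arrays, in the second dimmest part of all genes, with a difference of -0.22 and a wide interval of -0.91 to 0.48. Psma8, the testis form of an alpha subunit, read 1.04 to 1.90 and differed by -0.11.

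**Figure D4:**
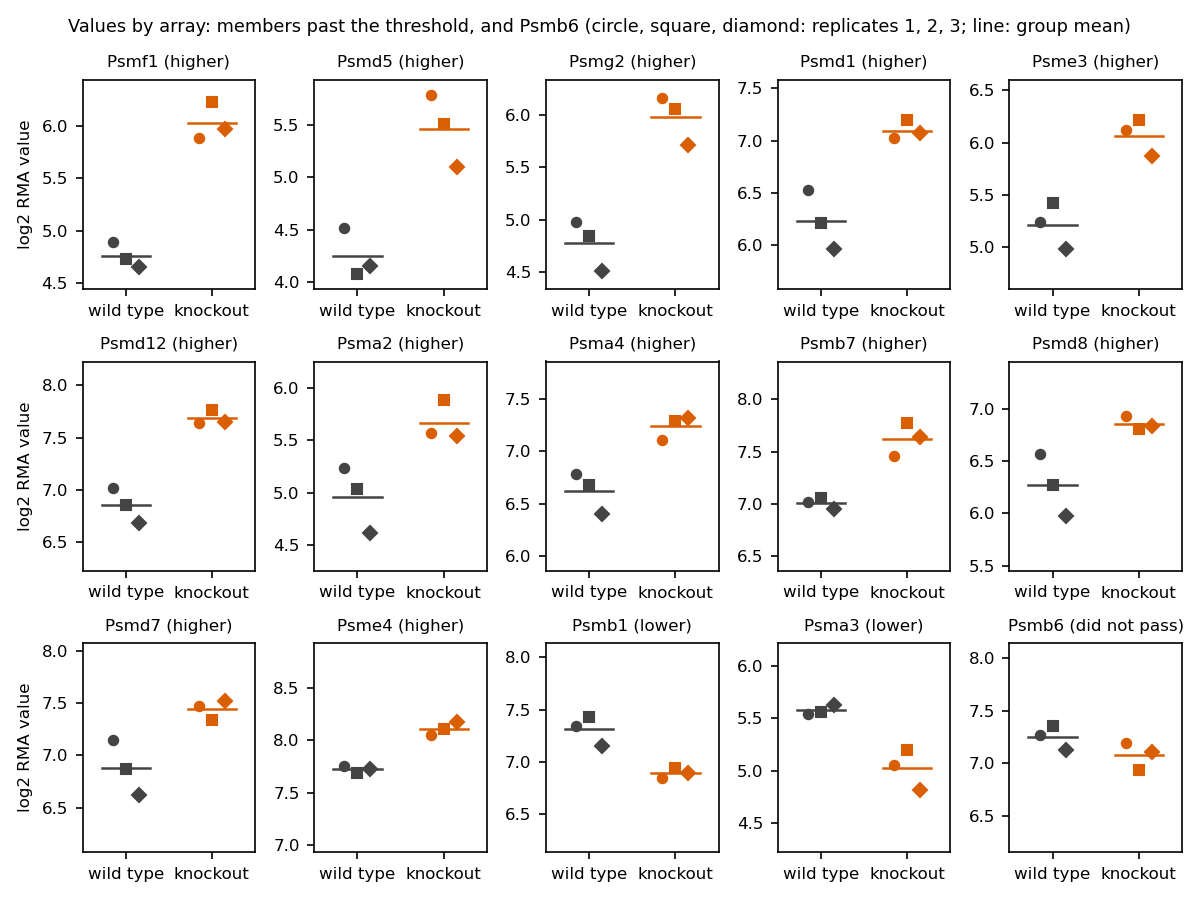
Log2 RMA value of each array for the 14 proteasome genes past the threshold and for Psmb6, which did not pass. Circles, squares and diamonds are replicates 1, 2 and 3, lines are group means, and every panel spans 2 log2 units. In all 14 called genes the knockout arrays lie wholly above or wholly below the wild type arrays, while those of Psmb6 overlap.

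Beta ring genes include those for the protease sites. Of the 6 measured, Psmb7 rose, Psmb1 fell and 4 did not pass, with a median of -0.14 that was also negative after quantile normalization (-0.26) and centring (-0.04). Psmb7, which carries the trypsin-like site, read 7.02, 7.06 and 6.95 in wild type and 7.46, 7.77 and 7.64 in the knockout. Its wild type arrays lay close together and below all knockout arrays, a 1.53-fold rise (SE 0.12 on the log2 scale, limma adjusted p = 0.0117). Psmb6, which carries the caspase-like site, read 7.27, 7.36 and 7.13 in wild type and 7.19, 6.94 and 7.10 in the knockout. Those groups overlapped, and the difference of -0.17 had an interval of -0.46 to 0.11 (limma adjusted p = 0.418). Psmb7 and Psmb6 thus had differences of opposite sign, although the contrast between them was not tested.

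Psmb1, a structural beta subunit, read 7.35, 7.43 and 7.16 in wild type and 6.84, 6.94 and 6.89 in the knockout. All knockout arrays were lower, by 0.42 on the log2 scale in the mean (SE 0.12), but the limma adjusted p of 0.0480 lay just under the threshold. The call was lost after centring (0.133), with a variance trend (0.0523), and without any 1 array except wild type replicate 3 (0.0911 to 0.146). The call of Psmb7 was lost after quantile normalization (0.0646) and without knockout replicate 2 (0.0553). Psmb4 differed by -0.33 with groups apart (limma adjusted p = 0.161), and Psmb2 by 0.11 with groups that overlapped. Psmb11, a catalytic subunit of the thymus form, read 1.79 to 2.28 on all arrays, with a difference of -0.11.

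ATPase genes of the regulatory particle, whose products unfold the substrate and push it into the core, gave 0 calls among 6 in limma. At an unadjusted limma p under 0.05, Psmc1, Psmc3 and Psmc6 differed, beside 6792 of all 23185 genes. Psmc6 read 7.35, 7.32 and 6.77 in wild type and 7.69, 7.45 and 7.68 in the knockout. Its knockout arrays lay above the wild type arrays, of which replicate 3 was far the lowest (difference 0.45, interval 0.05 to 0.86, limma adjusted p = 0.123). Psmc3 had a difference of -0.39 with groups apart (adjusted p = 0.0552) and passed as lower after quantile normalization (-0.60, 0.0102). It also passed as lower without the dimmest 50% of genes (0.046). Psmc1 had a difference of 0.29 with groups apart (0.123), and passed as higher after centring (0.0481). For Psmc2, Psmc4 and Psmc5 the differences were 0.26, 0.29 and -0.22.

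Non-ATPase genes of the regulatory particle encode its scaffold, ubiquitin receptors and deubiquitinase. Of 11, Psmd1, Psmd7, Psmd8 and Psmd12 rose, 0 fell and 7 did not pass. The median of 0.38 was also positive after quantile normalization (0.22) and centring (0.48). These 11 leave out the lid subunit Sem1, whose symbol the rule does not cover and which was called lower, as given below. Psmd1, the largest scaffold subunit of the base, read 6.53, 6.22 and 5.96 in replicates 1, 2 and 3 of the wild type and 7.03, 7.19 and 7.07 in the knockout. Its lowest knockout array stood well above its highest wild type array, a 1.82-fold rise (SE 0.16 on the log2 scale, limma adjusted p = 0.00764). Psmd12, a lid subunit, read 7.02, 6.86 and 6.69 in wild type and 7.64, 7.77 and 7.65 in the knockout. The rise was 1.78-fold with small spread in both groups (SE 0.13, limma adjusted p = 0.00359). Psmd1 and Psmd12 passed in every setting tried at the 0.05 threshold.

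Psmd7, the lid subunit that pairs with the deubiquitinase, read 7.15, 6.87 and 6.62 in wild type and 7.47, 7.34 and 7.52 in the knockout. Psmd8, another lid subunit, read 6.57, 6.27 and 5.97 in wild type and 6.93, 6.81 and 6.83 in the knockout. In both genes wild type replicate 1 came nearest to the knockout arrays and replicate 3 lay farthest below. The rises were 1.48-fold for Psmd7 (SE 0.15, limma adjusted p = 0.0381) and 1.50-fold for Psmd8 (SE 0.16, 0.0389). Both calls were lost after quantile normalization (0.153 and 0.138) and without any 1 array except wild type replicate 1 (0.0766 to 0.125 for Psmd7, 0.0757 to 0.126 for Psmd8).

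Psmd11, a lid subunit, had the largest difference among the genes that did not pass. It read 7.09, 6.46 and 6.47 in wild type and 7.24, 7.54 and 7.20 in the knockout, so wild type replicate 1 stood apart from the other wild type arrays. The difference of 0.66 had an interval of 0.22 to 1.10 and a limma adjusted p of 0.0511. Without wild type replicate 1 the adjusted p was 0.00641, and centring (0.0302) and the trend and robust variance models (0.0454 and 0.0499) also gave a call. So did leaving out the dimmest 50% of genes (0.0333) or both arrays numbered 1 (0.0216). Psmd14, which encodes the deubiquitinase itself, differed by 0.38 (interval 0.05 to 0.71, adjusted p = 0.122), with groups that overlapped. Differences for the ubiquitin receptor Psmd4 and for Psmd2, Psmd3, Psmd6 and Psmd13 ran from -0.25 to 0.18.

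Chaperones that build the proteasome gave 2 of the 3 differences of at least 2-fold, Psmd5 and Psmg2. Psmd5, which holds ATPase subunits before the base is complete, read 4.51, 4.08 and 4.15 in wild type and 5.78, 5.51 and 5.10 in the knockout. The knockout arrays were more spread than usual, yet all lay above wild type, with a 2.32-fold rise (SE 0.20 on the log2 scale, limma adjusted p = 0.00461). The other chaperones of the ATPase ring did not pass. Psmd9 had a difference of -0.38 with groups apart (adjusted p = 0.0546). It passed as lower after quantile normalization (0.0333) and without the dimmest 50% of genes (0.047). Psmd10 had a difference of 0.33 with groups apart (0.153).

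Among the 4 chaperones of the core particle only Psmg2 passed. It read 4.98, 4.84 and 4.51 in wild type and 6.16, 6.06 and 5.72 in the knockout. The order of the replicates was the same in both groups and the groups were far apart, with a 2.30-fold rise (SE 0.17, limma adjusted p = 0.00266). Psmg1, with which its product forms a pair, read 4.60, 5.14 and 4.45 in wild type and 4.93, 5.00 and 4.90 in the knockout. Its groups overlapped because wild type replicate 2 was the highest array of all, and the difference of 0.21 had an interval of -0.20 to 0.62. Psmg3 and Psmg4, which form the other pair, differed by -0.22 and -0.21, and Psmg4 read below the median of all genes.

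Activators and the inhibitor all had positive differences, with 3 of 5 called higher. The median of 0.44 was also positive after quantile normalization (0.21) and centring (0.54). Psmf1, which encodes an inhibitor of the core particle that also acts in its transport and assembly, had the largest difference of all 45 genes. It read 4.89, 4.73 and 4.65 in wild type and 5.88, 6.23 and 5.97 in the knockout. No array came near the other group, and the rise was 2.41-fold (SE 0.14 on the log2 scale, limma adjusted p = 0.000924). The adjusted p of Psmf1 was at most 0.00635 in the fits without 1 array.

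Psme3, the nuclear activator of the core particle, read 5.24, 5.42 and 4.99 in wild type and 6.12, 6.21 and 5.87 in the knockout. Replicate 3 was the lowest in each group, and the rise was 1.80-fold (SE 0.15, limma adjusted p = 0.00729). Its call was lost only without both arrays numbered 1 (0.0517), a setting added after the data were seen. Psme4, a large activator known for work in the nucleus, read 7.76, 7.68 and 7.73 in wild type and 8.05, 8.11 and 8.18 in the knockout. The arrays of each group lay close together, but the rise was only 1.31-fold (SE 0.11, limma adjusted p = 0.0426). It was lost without any 1 of the 6 arrays (0.0626 to 0.139) and after quantile normalization, where the difference was 0.12 (0.595). Psme1 and Psme2 encode the partners of the interferon-induced activator. Psme1 differed by 0.44 with groups apart (adjusted p = 0.0672), passing without wild type replicate 2 (0.0297) and after centring (0.0340), and Psme2 by 0.07 (interval -0.19 to 0.33).

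Psmc3ip, a recombination factor, and Psme3ip1, a partner of the Psme3 product, had differences of 0.32 and 0.12 and did not pass. Leaving both out left 12 genes higher and the median at 0.21. Across all 45 genes, 27 had groups that did not overlap, or 60.0%, beside 34.1% of all genes tested. The 34.1% covers genes of all levels, while 34 of the 45 lay in the 2 brightest parts. No such share was worked out for bright genes alone. Of the 27, 14 were the called genes, and the other 13 were 8 with knockout arrays above and 5 with knockout arrays below. The 31 genes that did not pass had differences of -0.39 to 0.66, and for 30 of them the 95% interval lay within 1 log2 unit on either side of 0. The exception was Psmd11, whose interval reached 1.10. None of the 14 called genes changed sign under any setting tried, while 9 of the others did under at least 1.

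Of 35 other genes of the ubiquitin-proteasome route, 26 had a row, and 14 rose, 2 fell and 10 did not pass, with a median difference of 0.47. Upward calls made up 53.8% of the 26 and downward calls 7.69%, beside 10.4% and 6.18% of all genes tested. All 26 lay in the 5 brighter of the 10 parts by level, where 20.2% of all genes were called higher and 10.4% lower, with a median difference of 0.05. Most of the 26 lay in the 2 brightest parts, where 30.0% of all genes were called higher and 11.0% lower, with a median of 0.20. After quantile normalization 5 of the 26 rose, and their median was 0.26. In that setting 19.5% of all genes in the 2 brightest parts were called higher, with a median of 0.02. Genes of the route that rose numbered 8 without wild type replicate 2 and 7 without replicate 3, and 4, 3 and 6 without knockout replicate 1, 2 or 3. Leaving out any 1 knockout array left 0 of the 26 called lower.

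The immunoproteasome genes, whose products replace catalytic subunits under interferon, gave 0 calls among 3 in limma. Psmb8 read 3.66, 3.65 and 3.60 in wild type and 3.34, 3.17 and 3.31 in the knockout, and Psmb10 5.81, 5.75 and 5.89 against 6.09, 6.27 and 6.18. Both had groups apart, in opposite directions, with differences of -0.36 and 0.36, unadjusted p of 0.0107 and 0.0125, and limma adjusted p of 0.0594 and 0.0662. Psmb9 overlapped between the groups, with a difference of 0.20.

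Proteins that bind, assemble or help to place the proteasome were measured by 9 genes, of which 6 rose and Sem1 fell. The deubiquitinases Usp14 and Uchl5 rose 1.81-fold (SE 0.13 on the log2 scale, limma adjusted p = 0.00333) and 2.00-fold (SE 0.22, 0.0171). Usp14 read 4.86, 4.92 and 4.63 in wild type and 5.54, 5.70 and 5.73 in the knockout. These Usp14 groups were wide apart, and the call held in every fit without 1 array. For Uchl5 the call ended when wild type replicate 3 (0.0534) or any 1 knockout array (0.0542 to 0.0692) was left out. Ecpas, Akirin2, Zfand5 and Ube3c, which encode a proteasome adaptor, a nuclear import factor of the proteasome, a proteasome activator and a ubiquitin ligase bound to it, rose by 0.49, 0.45, 0.46 and 0.49 on the log2 scale. All 4 calls were lost after quantile normalization (0.125 to 0.297) and without knockout replicate 1, 2 or 3 (limma adjusted p up to 0.149). Sem1, a small lid subunit, fell, with a log2 difference of -0.49 and a limma adjusted p of 0.0226, and was not called after centring (0.0558). It was also not called without wild type replicate 2 (0.0583) or without knockout replicate 1 (0.0565), 2 (0.0910) or 3 (0.0770). The core maturation factor Pomp had a difference of 0.52 (adjusted p = 0.118).

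Factors that bring substrates to the proteasome rose for 5 of 7, namely Ubqln2, Ubqln4, Rad23b, Nploc4 and Ufd1. The shuttle genes Ubqln2 and Ubqln4 rose 1.92-fold (SE 0.19 on the log2 scale, limma adjusted p = 0.0105) and 1.72-fold (SE 0.13, 0.00448). Ubqln2 lost its call without knockout replicate 2 (0.0524), while Ubqln4 kept its call in all fits without 1 array. Rad23b, Nploc4 and Ufd1 rose by 0.58, 0.52 and 0.51 and lost their calls after quantile normalization (0.149, 0.119 and 0.197). Those 3 were lost in 5, 4 and 5 of the 6 fits without 1 array, with limma adjusted p up to 0.0981, 0.0833 and 0.121. Vcp, the segregase that Nploc4 and Ufd1 serve, had uneven knockout values of 5.91, 7.38 and 6.73 beside 6.72, 6.25 and 6.23 in wild type, and did not pass. Uba6, a ubiquitin-activating enzyme and the only gene of its list with a row, rose 1.68-fold (SE 0.14, limma adjusted p = 0.00930).

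Of 6 genes tested for control of proteasome transcription, Nfe2l1 and Ngly1 rose and Maff fell. Nfe2l1, which encodes the membrane-bound factor that raises proteasome genes when proteasomes fail, read 8.15, 7.98 and 8.08 in wild type and 8.54, 8.79 and 8.52 in the knockout. The groups were apart and the rise was 1.46-fold (SE 0.13 on the log2 scale, limma adjusted p = 0.0190). Its call was lost after quantile normalization (0.216) and without knockout replicate 1 (0.0515) or 2 (0.0805). Ngly1, the glycan-removing enzyme that this factor needs, rose 1.52-fold (SE 0.16, limma adjusted p = 0.0334), a call that ended after quantile normalization (0.0857) and in 4 of the 6 leave-one-out fits, with an adjusted p of at most 0.122. Maff, a small Maf partner, fell, with a log2 difference of -0.73 (SE 0.16) and a limma adjusted p of 0.0167. The fall was not called without knockout replicate 1 (0.0651), 2 (0.0577) or 3 (0.0586). Nfe2l2, Mafk and Mafg had differences of 0.15, 0.05 and -0.06.

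**Figure D5:**
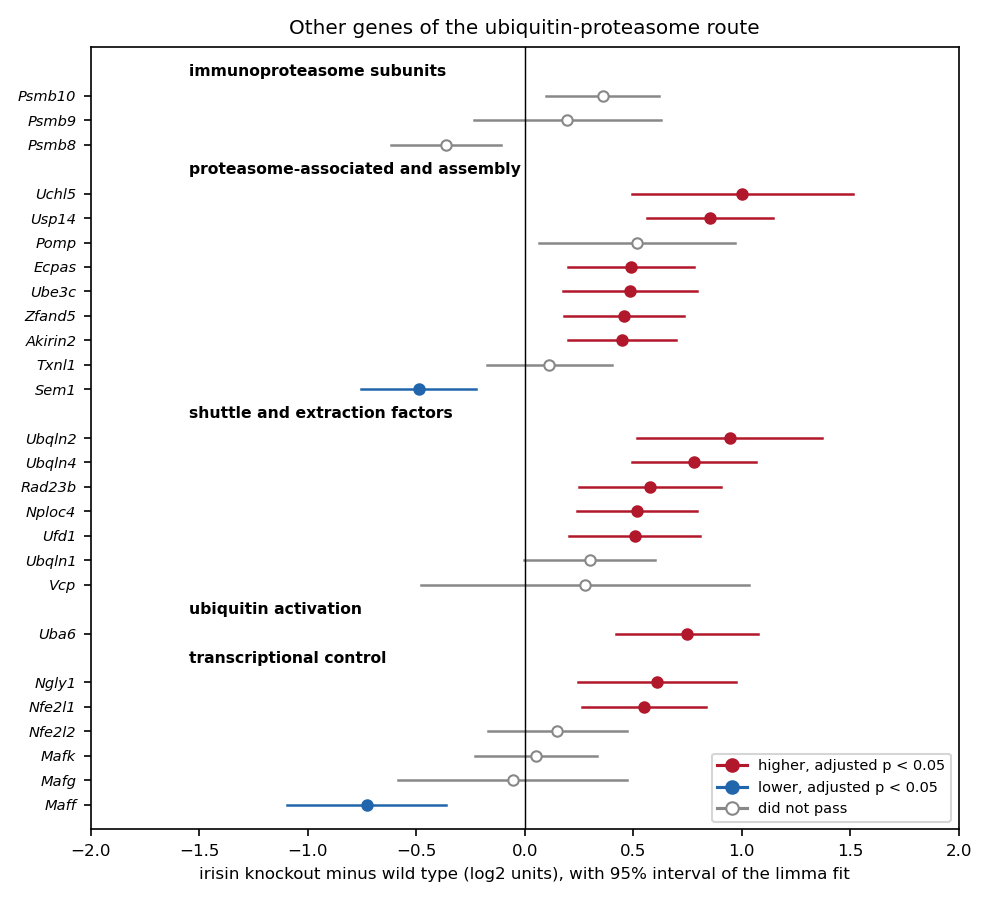
Difference between irisin knockout and wild type (log2 units on the horizontal axis, 95% intervals of the limma fit) for 26 other genes of the ubiquitin-proteasome route, grouped by role. Filled red points rose and filled blue points fell at an adjusted p of 0.05. The 14 genes that rose include 6 proteasome-associated genes and 5 shuttle and extraction factors, and the immunoproteasome genes did not pass.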

How the data were processed

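RNA from 6 samples, 3 of each genotype, was isolated in TRIzol and biotin-labelled for Affymetrix arrays (labels' protocols). What the authors deposited is a log2 RMA summary per probe set; the submitters' processing notes name RMA, affy 1.61.0 and R 3.6.0. The log2 scale was inferred from the range of the values. Genome build, probe set definition and RMA steps were not given in the sources used here. Array medians differ by up to 0.143, and no detection calls were used.

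Of 25206 rows, 23185 carry 1 symbol in the platform annotation, 0 several and 2021 none. All 45 symbols of the proteasome genes stand in the RefSeq gene table of GRCm38.p6. Groups came from the titles. Genes were tested with limma 3.58.1 (lmFit, eBayes, genotype only, two-sided, Benjamini-Hochberg) in R 4.3.3, with no filter. In simulated data with the means and SDs of these 23185 genes, 200 genes were given a shift. Calls were made for 2 of 67 genes given a 0.5 log2 shift, for 39 of 67 given a shift of 1 and for 62 of 66 given 2. Another 7 calls were false. The adjustment depends on how many genes differ, and 3848 were called in the data. The simulated shares therefore do not give the power of this comparison.

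The proteasome genes, other lists and alternatives were chosen with earlier results of these data known. The ETS motif was added after promoters had been read. Values by array are printed for every proteasome gene past the threshold, for the catalytic genes Psmb6 and Psmb7 and for the 3 largest differences that did not pass. Of the other genes of the route, those past the threshold are named, with Psmb8, Psmb9, Psmb10, Nfe2l1 and Pomp whatever their values. Psmg1, Vcp and further genes named were chosen after their values were seen. Alternatives were quantile normalization, centring, leaving out the dimmest 50% of genes, other variance models, a replicate block, other thresholds and leaving out each array, with both arrays numbered 1 left out added later.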

Additional observations from a re-analysis of the deposited data

How the results depend on the processing

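With 3 arrays per group and no call of signal over background, small differences and dim genes are poorly resolved, and the labels name no batch, so its part was not tested. The proteasome genes called higher (12) numbered 6 after quantile normalization, 6 at an adjusted p of 0.01, and 6 to 12 without 1 array. They numbered 16 after centring, 15 at a threshold of 0.1 and 14 without the dimmest 50% of genes. With a variance trend they numbered 13, with the robust model 13, and without both arrays numbered 1 they numbered 11. Those called lower (2) numbered 5 after quantile normalization, 1 after centring, 4 without the dimmest 50% of genes, 1 with a variance trend, 0 without both arrays numbered 1, 0 at a threshold of 0.01 and 5 at 0.1, and 0 to 1 without 1 array. With the replicate block 10 were higher and 1 lower, without Psmd7 (adjusted p = 0.0533), Psme4 (0.0885) and Psmb1 (0.0790); the cause was not tested. Whether the titles' numbers pair the samples was not settled. Deviations of same-numbered arrays correlated at only 0.0478 to 0.0896 over genes. Each knockout array correlated best with its own number, but wild type replicate 2 correlated best with knockout replicate 3 (0.0548). The block gave 3577 calls over all genes, and 8 higher and 2 lower among the other genes of the route. The median difference (0.21) went to 0.064 after quantile normalization and 0.072 to 0.28 without 1 array. Centring moved the median of all genes from -0.05 to 0.06, and with it 75.4% of all calls were upward, against 62.8% as deposited. All calls (3848) numbered 2104 to 4163 without 1 array and 1784 at 0.01. Fndc5 kept its sign; its difference was -2.01 with the robust model (adjusted p = 0.0635) and -2.75 to -1.63 without 1 array.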
